A study of Mus musculus with 6 samples.

Results

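The 8 genes described here mark granulocyte progenitors by the proteins of the primary granule and a few genes read with them: Mpo, Elane, Prtn3, Ctsg, Ctsc, Ms4a3, Igsf6 and Hp. They were taken by symbol, and the list was chosen with earlier results of these data known. Every probe set whose annotated gene is exactly a listed symbol was used, which gave 10 probe sets for 8 genes of the 18193 genes with a probe set of their own on the array. All 10 passed the filter on dim probe sets, among 27424 probe sets and 12837 genes that did. Ctsc had 3 probe sets and each other gene had 1. Mpo, Elane, Prtn3 and Ctsg encode contents of the primary granule itself. Ctsc encodes the lysosomal protease that activates the serine proteases made from Elane, Prtn3 and Ctsg. Hp, Ms4a3 and Igsf6 are companions of the same cell stage that are not classical primary granule contents.

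RNA was profiled on 6 Affymetrix mouse arrays from bone marrow cells sorted as lineage negative, cKit+ and Sca1-, called myeloerythroid progenitors in the labels. The ICN2-positive group (3 arrays) came from Rosa-lsl-ICN2 Mx1-cre+ mice, labelled male. The ICN2-negative group (3 arrays) came from Mx1-cre+ littermates without the transgene, labelled female. All mice were 6 weeks old, carried Mx1-cre and had 3 doses of polyIC at 20 mcg per g, and cells were taken 1 week after the last dose. ICN2 is the intracellular part of Notch2, an always active form of the receptor, placed at Rosa26 behind a stop cassette that Cre removes. Mx1-cre is switched on by interferon, which polyIC elicits, and it acts in many cell types besides blood cells. The share of sorted cells that recombined was not analysed here. Sex and genotype cannot be told apart in any difference below. The labels do not say that replicates were separate animals, so the p-values cover array-to-array spread that may be technical. Precision is bounded by having 3 arrays in each group.

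Primary (azurophil) granules are the first granules that a future neutrophil makes. They are filled at the promyelocyte stage with myeloperoxidase and with a set of serine proteases, and their genes are switched on in granulocyte-monocyte progenitors by the transcription factors C/EBP alpha, PU.1, Runx1 and Myb. The proteases are made as inactive precursors, cathepsin C cuts off their leading dipeptide, and the proteoglycan serglycin holds them in the granule. Later granules with lactoferrin, collagenase and gelatinase follow as the cell matures. In the sorted population these genes were therefore read as markers of granulocyte and granulocyte-monocyte progenitors, among erythroid, megakaryocyte and other progenitors. Whether a difference was limited to the granulocyte branch was not tested.

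The promoters of the 4 granule protein genes and of Ctsc are shown. Mpo, Elane, Prtn3 and Ctsg shared 1 order of the ICN2-positive arrays and had no overlap between groups. The brightest Ctsc probe set differed in both. Ms4a3, Igsf6 and Hp also shared that order without overlap. The promoters of Ms4a3 and Igsf6 are not shown, and none was found for Hp. Each sequence is the 250 bases before the annotated start, 5′ to 3′ on the strand of the gene, from RefSeq on GRCm38.p6. Mpo lies at chr11:87793534-87793783 on the plus strand, Elane at chr10:79886062-79886311 on the plus strand and Prtn3 at chr10:79879417-79879666 on the plus strand. Ctsg lies at chr14:56102575-56102824 on the minus strand and Ctsc at chr7:88277835-88278084 on the plus strand. Capitals mark matches on either strand to GAGGAAG, a form of the PU.1 site, or to CAACNG, a form of the Myb site. The motifs were chosen with the sequences in view.
Mpo: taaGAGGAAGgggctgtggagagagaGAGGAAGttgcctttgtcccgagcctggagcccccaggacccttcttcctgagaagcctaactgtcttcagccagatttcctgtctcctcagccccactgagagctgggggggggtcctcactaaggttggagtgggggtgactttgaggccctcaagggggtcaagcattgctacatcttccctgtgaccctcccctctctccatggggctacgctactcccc
Elane: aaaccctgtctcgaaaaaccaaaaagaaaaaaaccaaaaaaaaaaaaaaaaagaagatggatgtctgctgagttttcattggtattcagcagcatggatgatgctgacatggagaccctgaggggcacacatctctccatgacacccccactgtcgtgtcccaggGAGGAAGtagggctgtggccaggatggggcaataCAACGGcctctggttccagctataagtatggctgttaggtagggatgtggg
Prtn3: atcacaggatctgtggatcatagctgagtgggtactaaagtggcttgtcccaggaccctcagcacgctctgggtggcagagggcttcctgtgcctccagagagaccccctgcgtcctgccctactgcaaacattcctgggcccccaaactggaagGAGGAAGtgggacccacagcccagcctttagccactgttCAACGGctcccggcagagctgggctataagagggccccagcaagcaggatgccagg
Ctsg: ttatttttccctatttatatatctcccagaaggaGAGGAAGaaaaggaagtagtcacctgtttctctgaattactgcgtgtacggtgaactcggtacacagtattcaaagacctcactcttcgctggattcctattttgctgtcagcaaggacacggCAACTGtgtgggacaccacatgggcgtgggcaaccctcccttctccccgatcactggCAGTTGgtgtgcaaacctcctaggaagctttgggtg
Ctsc: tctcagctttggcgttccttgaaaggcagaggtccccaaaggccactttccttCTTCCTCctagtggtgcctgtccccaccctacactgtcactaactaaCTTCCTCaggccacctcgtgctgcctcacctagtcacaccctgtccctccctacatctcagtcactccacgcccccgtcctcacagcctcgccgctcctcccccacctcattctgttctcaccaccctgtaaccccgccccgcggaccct

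Promoters were found for 7 of the 8 genes. GAGGAAG or its complement occurred in 5 of these 7, against 10.6% of all 32851 promoter windows of this length. Because the motifs were chosen with these sequences in view, the counts here are no test of enrichment. Those 5 were Mpo, Elane, Prtn3, Ctsg and Ctsc. The match was thus shared by genes whose arrays separated and by Ctsc, whose arrays did not. It was absent from Ms4a3 and Igsf6, whose arrays separated too. CAACNG occurred in Elane, Prtn3 and Ctsg, against 29.3% of all windows. In Elane the 2 motifs began 85 and 51 bases before the start, and in Prtn3 they began 95 and 56 bases before it, in the same order and on the strand of the gene. The Runx motif TGTGGT was found in Ctsg alone (14% of all windows), and the C/EBP motif TTNNGNAA in Ms4a3 and Igsf6 (36.8% of all windows). The motifs do not overlap one another in Mpo, Elane, Prtn3, Ctsg and Ctsc.

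ICN2-positive replicate 1 stood apart before any gene was singled out. It correlated with the other 2 ICN2-positive arrays at 0.984 and 0.987, which correlated with each other at 0.995, and pairs of ICN2-negative arrays gave 0.994 to 0.995. The difference between the 3′ and 5′ control probe sets of beta-actin, a measure of RNA or labelling quality, was 1.01 (log2) on that array, 0.71 and 0.75 on the other ICN2-positive arrays and 0.79 to 0.85 on the ICN2-negative arrays. For the other 3 controls that array was highest in Gapdh (0.73, against 0.63 to 0.66 on the rest) and narrowly in pyruvate carboxylase (1.97, against 1.46 to 1.90), but not in the transferrin receptor (2.92, against 2.86 to 3.28). The part of RNA quality in the results was not tested. The differences of the 8 genes and the counts and medians of the gene lists are given with and without that array.

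Mpo encodes myeloperoxidase, the heme enzyme that makes hypochlorous acid in the phagosome. Its RMA intensity was 3349, 13237 and 12718 in ICN2-positive replicates 1 to 3, against 16340, 16692 and 17264 in ICN2-negative replicates 1 to 3. All ICN2-positive values lay below all ICN2-negative ones, replicate 1 far more so than the others. The difference was -1.02 ± 0.54 on the log2 scale (ICN2-positive minus ICN2-negative, ± SE, n = 3 each), with a 95% interval of -2.36 to 0.32 and an adjusted p of 0.309 in limma. With ICN2-positive replicate 1 left out it was -0.37 ± 0.08 (adjusted p = 0.0769). In sorted bulk samples, here and below, fewer cells of a type and less RNA per cell cannot be told apart.

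The 3 serine proteases of the granule had the same order of ICN2-positive arrays as Mpo. Elane, neutrophil elastase, read 1223, 8987 and 8473 in ICN2-positive replicates 1 to 3, against 12125, 13619 and 13080 in ICN2-negative replicates. Prtn3, proteinase 3, read 1453, 10938 and 9491 in ICN2-positive cells, against 13742, 14334 and 14983 in ICN2-negative cells. Ctsg, cathepsin G, read 1877, 12137 and 10963 in ICN2-positive cells, against 16234, 17006 and 17260 in ICN2-negative cells. In none of the 3 did the groups overlap. The ICN2-negative values spanned 0.09 (Ctsg), 0.12 (Prtn3) and 0.17 (Elane) on the log2 scale, while ICN2-positive replicates 2 and 3 were 0.39 to 0.62 below the ICN2-negative mean and replicate 1 was 3.16 to 3.40 below it.

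With all 6 arrays the proteases did not pass the test. The log2 difference was -1.51 ± 0.79 for Elane (adjusted p = 0.299), -1.43 ± 0.78 for Prtn3 (adjusted p = 0.319) and -1.42 ± 0.73 for Ctsg (adjusted p = 0.294). Without ICN2-positive replicate 1 the differences were smaller but more even. Elane was then 1.48-fold lower (-0.57 ± 0.09, adjusted p = 0.0485) and Ctsg 1.46-fold lower (-0.54 ± 0.09, adjusted p = 0.0485), and both passed at 0.05. Prtn3 differed by -0.49 ± 0.10 in that fit (adjusted p = 0.074).

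**Figure D1:**
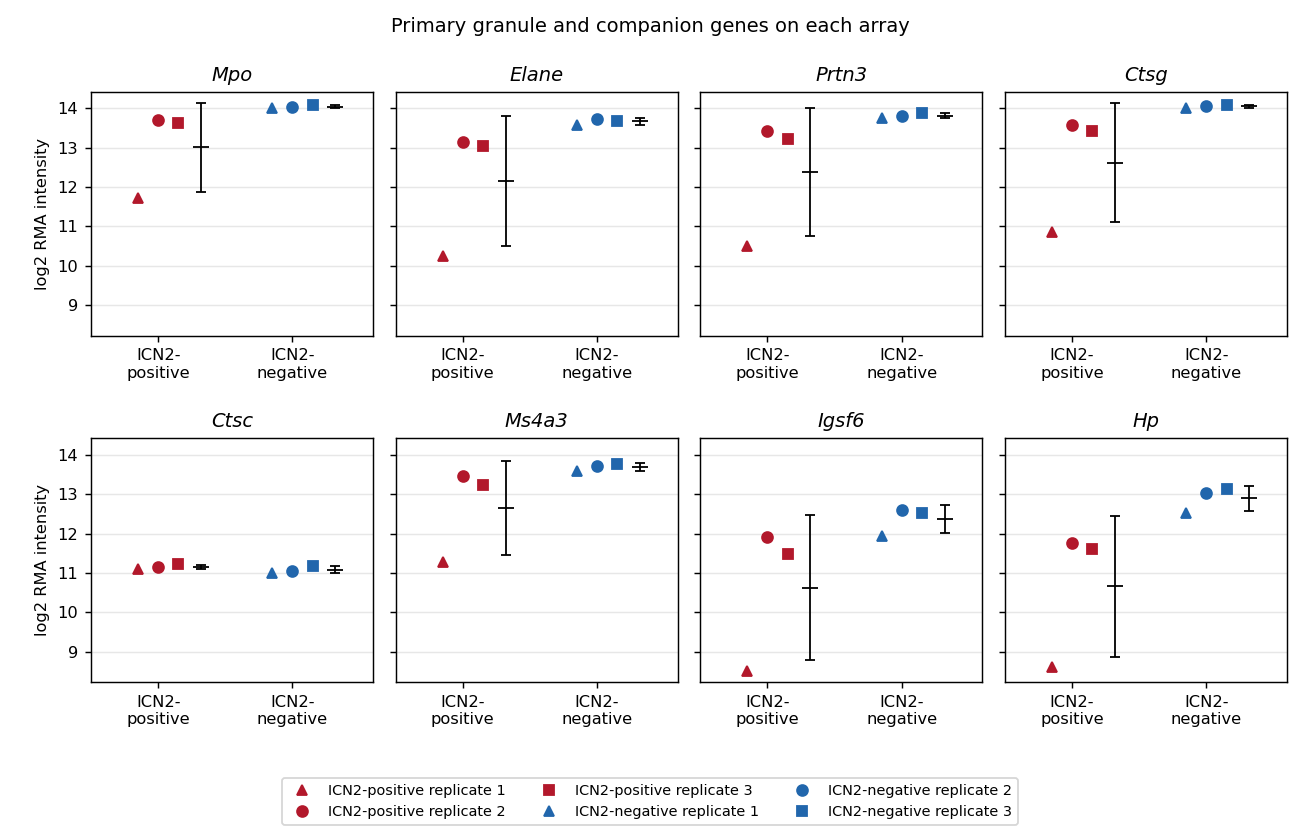
Log2 RMA intensity of the 8 genes (brightest probe set each) on every array, ICN2-positive in red and ICN2-negative in blue, with the symbol giving the replicate and black bars the group mean ± SD (n = 3). In 7 genes every ICN2-positive point lies below every ICN2-negative point, replicate 1 farthest, and in Ctsc the groups overlap.

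Ctsc, the dipeptidyl peptidase that activates these proteases, did not show the array order of Mpo on its brightest probe set. Its brightest probe set read 2213, 2278 and 2388 in ICN2-positive replicates 1 to 3, against 2045, 2124 and 2313 in ICN2-negative replicates. The groups overlapped, and the difference was 0.09 ± 0.08 on the log2 scale, with a 95% interval of -0.11 to 0.29 (adjusted p = 0.554). The low end of that interval lay above the point differences of the 7 other genes, which were -1.02 or lower with all arrays. The intervals of those 7 genes still overlapped it (-2.36 to 0.32 for Mpo and -4.37 to -0.10 for Hp). Without ICN2-positive replicate 1 their differences were -0.35 or lower, and Ctsc was at 0.11 (95% interval -0.12 to 0.34). Whether Ctsc differed from the other genes was not tested. The 2 dimmer Ctsc probe sets differed by 0.00 ± 0.28 and 0.39 ± 0.22 (adjusted p = 0.994 and 0.327), and their groups overlapped too. Both ordered the ICN2-positive arrays as Mpo did, with replicate 1 lowest and replicate 2 highest. ICN2-positive replicates 1 to 3 read 6.504, 7.371 and 7.015 (log2) on the former and 7.002, 7.752 and 7.43 on the latter. ICN2-positive replicate 1 itself was 0.04 above the ICN2-negative mean on the brightest Ctsc probe set.

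Ms4a3 encodes a tetraspanning membrane protein that marks granulocyte-monocyte progenitors in the mouse. It read 2472, 11206 and 9611 in ICN2-positive replicates 1 to 3, against 12285, 13503 and 13990 in ICN2-negative replicates. The groups did not overlap, with a gap of 0.13 (log2) between the nearest arrays, and the difference was -1.04 ± 0.58 (adjusted p = 0.327). Igsf6, an immunoglobulin superfamily membrane protein of myeloid cells, read 365.3, 3847 and 2828 in ICN2-positive cells, against 3967, 6237 and 5897 in ICN2-negative cells. Its groups were separated by only 0.04 (log2), since ICN2-negative replicate 1 was also low, and the difference was -1.73 ± 0.90 (adjusted p = 0.299). Neither passed when ICN2-positive replicate 1 was left out (-0.35 ± 0.11 with adjusted p = 0.16 for Ms4a3, and -0.67 ± 0.25 with adjusted p = 0.208 for Igsf6).

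Hp encodes haptoglobin, the hemoglobin-binding protein that granulocytes as well as liver cells make. It read 390.4, 3487 and 3102 in ICN2-positive replicates 1 to 3, against 5935, 8295 and 8957 in ICN2-negative replicates. This was the widest gap between nearest arrays among the 8 genes, at 0.77 (log2). The difference was -2.24 ± 0.87, with a 95% interval of -4.37 to -0.10, an unadjusted p of 0.0428 and an adjusted p of 0.191 in limma over all probe sets. Leaving out ICN2-positive replicate 1 gave -1.21 ± 0.20 (adjusted p = 0.0534), so Hp had the largest difference of the 8 genes in both fits and did not pass in either.

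With all arrays, limma called none of the 10 probe sets, and 1 of 10 (Hp) had an unadjusted p below 0.05, against 24.3% of all probe sets. Over the 27424 probe sets tested, 2.65% were called, 0.988% lower and 1.67% higher in ICN2-positive cells. In 7 of the 8 genes the 3 ICN2-positive values lay below the 3 ICN2-negative values, against 16.9% of all 12837 genes, and 20.7% of genes were separated the other way. By probe set these were 7 of 10, against 14% of all probe sets lower and 19.7% higher. The exact two-sided permutation test gave p = 0.1 for each of these 7, the smallest that 3 against 3 arrays allow. The median difference of the 8 genes was -1.42 (log2), beside 0.02 over all genes tested. Since the genes were chosen with earlier results of these data known, the shares and medians beside all genes are descriptive only. Without ICN2-positive replicate 1, 2 of 10 probe sets passed (Elane and Ctsg, both lower), against 3.14% of all probe sets, 1.55% lower and 1.59% higher. The median difference of the 8 genes was then -0.52, beside 0.01 over all genes. Of all genes 3.89% passed in that fit, 2.02% lower and 1.87% higher.

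**Figure D2:**
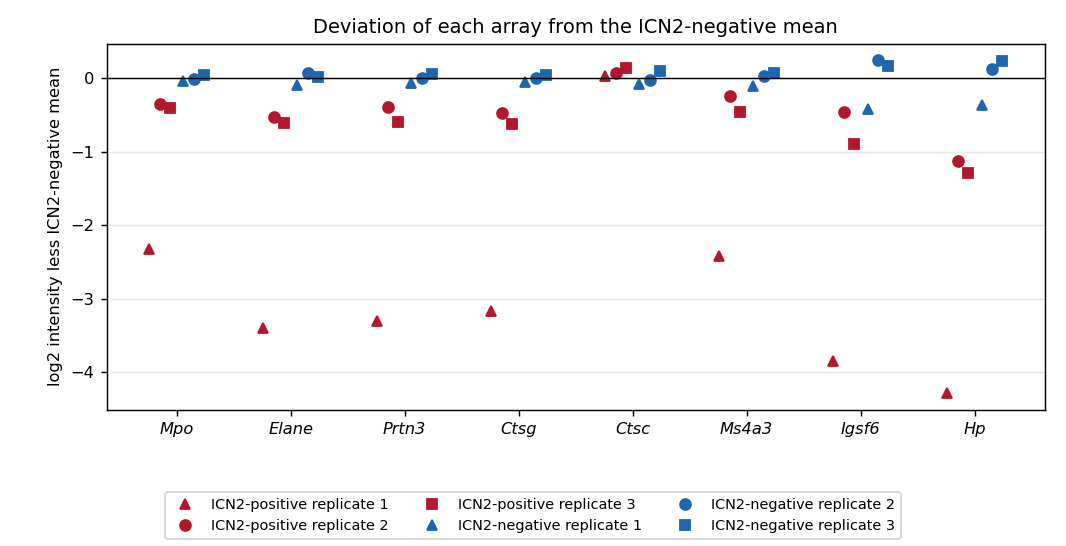
Log2 intensity of each array less the mean of the 3 ICN2-negative arrays, for the brightest probe set of each gene, with ICN2-positive arrays in red and ICN2-negative arrays in blue. In 7 genes ICN2-positive replicate 1 lies 5.00-fold to 19.5-fold below the line, replicate 2 lies 1.18-fold to 2.18-fold below it and replicate 3 lies 1.32-fold to 2.45-fold below it, while in Ctsc all arrays lie near the line.

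The genes ranked the arrays alike. ICN2-positive replicate 1 was the lowest ICN2-positive array in 8 of 8 genes, and ICN2-negative replicate 1 was the lowest of its group in 8 of 8. On the brightest Ctsc probe set, however, ICN2-positive replicate 1 was only 0.08 (log2) below the mean of replicates 2 and 3. On the 2 dimmer Ctsc probe sets it was 0.69 and 0.59 below that mean. In 7 of 8 genes ICN2-positive replicate 2 was the highest of its group. The 8 genes were read on the same arrays and are not independent, and the share of all genes with these orders was not computed. The 3 serine proteases lay closest to the median pattern of the 8 genes over the 6 arrays. Their root mean square difference from it was 0.05 (Ctsg), 0.06 (Prtn3) and 0.08 (Elane) on the log2 scale. All 8 genes helped to set that median pattern, so closeness to it was partly built in. Mpo and Ms4a3 had the same shape with a smaller range (0.32 and 0.28), Igsf6 and Hp a larger one (0.29 and 0.45), and Ctsc was unlike it (1.15). Mpo and Ctsg, at up to 17264 and 17260, were close to the highest intensity of any probe set on the arrays (22949 to 23815). Whether bright probe sets were compressed was not tested.

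Among the 12829 other genes tested, those with the pattern nearest to the median of the 8 were, in order, Laptm4b (root mean square difference 0.10 over 6 arrays), Fes, Cd53, Pik3c2a, BC035044, Prkcb, Pou2f2 and Fcer1g (0.16). Laptm4b encodes a lysosomal membrane protein, Fes a tyrosine kinase of myeloid cells, Cd53 a leukocyte tetraspanin and Fcer1g the signalling chain of Fc receptors. Laptm4b read 7.90, 10.42 and 10.43 (log2 intensity) in ICN2-positive replicates 1 to 3, against 10.95, 10.90 and 11.01 in ICN2-negative replicates. Cd53 read 10.13, 12.61 and 12.51 in ICN2-positive cells, against 12.93, 13.13 and 13.03 in ICN2-negative cells.

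Other contents of the primary granule and of lysosomes were read from a list of 20 genes, 15 of them tested. None passed in limma, against 3.15% of the 12837 genes, while 8 of 15 had an unadjusted p below 0.05, against 26.5% of all genes. None passed without ICN2-positive replicate 1 either. All 15 had lower means in ICN2-positive cells, 10 of 15 with no overlap, against 16.9% of all genes separated in that direction. The median was -0.58 (log2), or -0.29 without ICN2-positive replicate 1. The lowest p was that of Ctsb, the lysosomal protease cathepsin B, at -0.72 ± 0.13 (adjusted p = 0.0584). Cst7, cystatin F, an inhibitor of cathepsin C, differed by -0.98 ± 0.24 (adjusted p = 0.0926). Lyz2, lysozyme of myeloid cells, read 8.59, 11.21 and 10.76 (log2) in ICN2-positive replicates 1 to 3, against 12.25, 13.10 and 12.81 in ICN2-negative replicates. Its difference was -2.54 ± 0.71 (adjusted p = 0.114), and it may share signal with its near-identical copy Lyz1 (-2.21 ± 0.66, adjusted p = 0.128), so the split between them is uncertain. Hexa, a subunit of lysosomal hexosaminidase, differed by -1.15 ± 0.34 (adjusted p = 0.127).

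The machinery that packs and folds granule proteins had differences in both directions. Of 20 tested genes none passed in limma, 2 had an unadjusted p below 0.05 (26.5% of all genes did), 10 had lower and 10 had higher means, and the median was 0.00 (log2). With ICN2-positive replicate 1 left out none passed and the median was 0.01. Srgn, the serglycin that holds proteases in the granule, differed by -0.19 ± 0.11 (adjusted p = 0.343), and was named after its value was seen. The lowest p values were those of Vps33b, a trafficking protein, at 0.34 ± 0.07 (adjusted p = 0.0804), and Jagn1, a reticulum protein needed for neutrophils, at 0.26 ± 0.10 (adjusted p = 0.194). The chaperones Hsp90b1 and Pdia3 followed, at -0.24 ± 0.12 and -0.22 ± 0.10 (adjusted p = 0.263 and 0.269).

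Inhibitors of the granule proteases moved apart from one another. Of 5 tested genes of a list of 14, 2 rose, 1 fell and 2 did not pass, against 1.89% of all genes that rose and 1.27% that fell. The median was 0.64 (log2), and 0.71 with 2 higher and 2 lower when ICN2-positive replicate 1 was left out. Serpinb6a, an intracellular serpin that inhibits cathepsin G, read 11.80, 11.48 and 11.72 (log2) in ICN2-positive replicates 1 to 3, against 8.73, 8.70 and 8.72 in ICN2-negative replicates. ICN2-positive replicate 1 was the highest of all arrays. The difference was 2.95 ± 0.10, a 7.73-fold rise (adjusted p = 3.74e-04), and it passed with any single array left out (adjusted p = 0.00236 to 0.0074). Serpinb6b, a close relative, rose 2.12-fold (1.08 ± 0.14, adjusted p = 0.0261), a call that ended on leaving out ICN2-positive replicate 2 or 3 or any one ICN2-negative array (adjusted p = 0.0617 to 0.11). Slpi, a secreted inhibitor of elastase and cathepsin G, read 7.47, 9.19 and 9.14 in ICN2-positive cells, against 12.40, 12.72 and 12.88 in ICN2-negative cells. It fell 16.8-fold (-4.07 ± 0.49, adjusted p = 0.0206), a call lost without ICN2-positive replicate 3 or any one ICN2-negative array (adjusted p = 0.0608 to 0.107). Serpinb1a, the cytosolic inhibitor of elastase, proteinase 3 and cathepsin G, differed by -1.87 ± 0.68 (adjusted p = 0.174). In the fit without ICN2-positive replicate 1 it passed, at -1.06 (adjusted p = 0.0428).

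**Figure D3:**
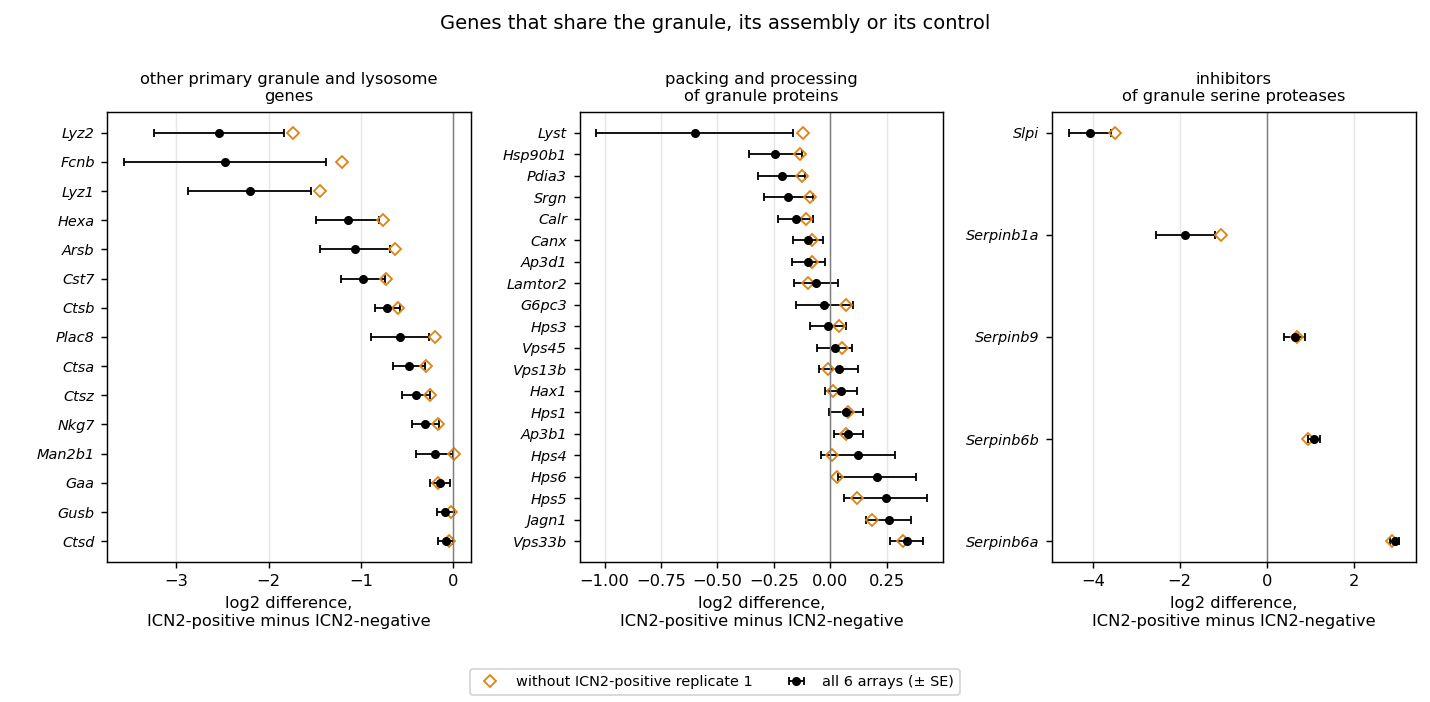
Log2 difference (ICN2-positive minus ICN2-negative) of every tested gene in 3 lists, with filled points and SE bars for all 6 arrays and open diamonds for the fit without ICN2-positive replicate 1. The panels have different horizontal scales. All 15 genes of the left panel lie below 0 with 6 arrays, the 20 of the middle panel lie on both sides, and in the right panel Slpi lies at -4.07 and Serpinb6a at 2.95.

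Of 18 tested regulators and receptors of granulocyte progenitors, 1 fell, none rose and 17 did not pass. Of all genes 1.27% fell and 1.89% rose. In limma 7 of 18 had an unadjusted p below 0.05, against 26.5% of all genes. The median was -1.04 (log2), or -0.48 without ICN2-positive replicate 1. Cebpd, a C/EBP family factor, fell 3.01-fold (-1.59 ± 0.26, adjusted p = 0.0442). Leaving out ICN2-positive replicate 2 or 3, or any one ICN2-negative array, ended that call (adjusted p = 0.0543 to 0.163). Csf3r, which encodes the G-CSF receptor, read 5.59, 7.37 and 7.07 in ICN2-positive replicates 1 to 3, against 8.57, 9.03 and 9.21 in ICN2-negative replicates (adjusted p = 0.0767). Klf4 differed by -1.92 ± 0.43 (adjusted p = 0.0804) on its brightest probe set (0.0309 without ICN2-positive replicate 2) and by -2.48 ± 0.35 (adjusted p = 0.0307) on the other. Csf2ra, a receptor chain for granulocyte-macrophage colony-stimulating factor, differed by -1.26 ± 0.30 (adjusted p = 0.0876). Without ICN2-positive replicate 1, 4 of 18 passed, all lower, against 2.02% of all genes. They were Cebpd, Csf3r, Gfi1 and Irf8, of which Gfi1 was at -1.90 (adjusted p = 0.011) and Irf8 at -1.74 (adjusted p = 0.0177). Of the factors known to act at these promoters, named after their values were seen, Cebpa read 8.73, 12.26 and 11.96 in ICN2-positive cells, against 12.65, 12.71 and 12.80 in ICN2-negative cells. Myb and Runx1 differed by -0.02 ± 0.07 and -0.07 ± 0.24 (adjusted p = 0.884 and 0.885), and Spi1, which encodes PU.1, by -1.04 ± 0.55 (adjusted p = 0.31).

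Of 12 tested genes of later neutrophil granules and stages, 1 fell and 11 did not pass, against 1.27% of all genes that fell. The median was -0.63 (log2), and -0.24 without ICN2-positive replicate 1, where 1 again passed. Means were lower for 10 genes and higher for 2, Chil3 (0.53 ± 0.77, adjusted p = 0.715) and Lcn2 (0.02 ± 0.50, adjusted p = 0.985). Mmp8, the neutrophil collagenase, fell at least 2.37-fold (adjusted p = 0.0099). All 3 ICN2-positive arrays were under their 40th percentile of intensity, and the fold is taken against that limit. Mmp8 thus passed the filter on dim probe sets only through the ICN2-negative arrays. The call was lost without ICN2-negative replicate 2 or 3 (adjusted p = 0.0652 and 0.0621). Ltf, lactoferrin, differed by -0.91 ± 0.19 (adjusted p = 0.0745), Cd177 by -1.24 ± 0.33 (adjusted p = 0.103, and 0.0321 without ICN2-negative replicate 1) and Padi4 by -1.05 ± 0.34 (adjusted p = 0.142).

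Several of the 8 genes sit beside relatives in the genome, and some of these neighbours passed the test. On GRCm38.p6, Elane and Prtn3 are adjacent on chromosome 10, Mpo is flanked on chromosome 11 by Lpo and Tspoap1 with Epx close by, Ms4a3 is next to Ms4a2 on chromosome 19, and Ctsg on chromosome 14 is next to Mcpt8, Mcpt4, Mcpt2 and Mcpt1 on one side and granzyme genes on the other. Neighbours were the 5 nearest protein-coding genes on each side of a member that had a probe set of their own on the array. Genes without one were skipped, also in the positions above. Of 47 tested neighbours, out of 70 such genes, 4 rose, 1 fell and 42 did not pass. Of all genes 1.89% rose and 1.27% fell. In limma 17 of 47 had an unadjusted p below 0.05, against 26.5% of all genes, and the median was -0.06 (log2). Leaving out ICN2-positive replicate 1 gave 5 higher, 2 lower and a median of -0.01, against 1.87% of all genes higher and 2.02% lower. Of the 4 risers 3 were neighbours of Ctsg. Mcpt1, Mcpt2 and Mcpt4, chymases of mast cells, were under the 40th percentile on all ICN2-negative arrays. They passed the filter on dim probe sets only through the ICN2-positive arrays, where they were high. Mcpt2 read 10.72, 10.54 and 9.53 (log2) in ICN2-positive replicates 1 to 3, against 4.06, 4.53 and 4.03 in ICN2-negative replicates. It was at least 31.5-fold higher in ICN2-positive cells (adjusted p = 0.00249) and passed with any single array left out (up to 0.0246). Mcpt1 was at least 21.9-fold higher (adjusted p = 0.0116), a call lost without ICN2-positive replicate 3 or ICN2-negative replicate 2 or 3 (0.0581 to 0.0713). Mcpt4 was at least 7.05-fold higher (adjusted p = 0.0211), a call lost without ICN2-positive replicate 2 or any one ICN2-negative array (0.0601 to 0.107).

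Mcpt8, the basophil protease gene nearest to Ctsg, read 9.70, 13.77 and 13.52 (log2) in ICN2-positive replicates 1 to 3, against 12.75, 12.93 and 12.49 in ICN2-negative replicates. ICN2-positive replicates 2 and 3 were thus above every ICN2-negative array and replicate 1 below every one (adjusted p = 0.858). Beside Mpo, Tspoap1 fell 4.30-fold (-2.10 ± 0.21, adjusted p = 0.0125), a call lost without ICN2-positive replicate 3 or ICN2-negative replicate 2 or 3 (0.0632 to 0.0663). Lpo, lactoperoxidase, differed by -1.29 ± 0.24 (adjusted p = 0.0569), and Epx, eosinophil peroxidase, by -1.17 ± 0.84 (adjusted p = 0.443). Beside Ctsc, Rab38, a small GTPase of lysosome-related organelles, rose 1.83-fold (0.88 ± 0.13, adjusted p = 0.0343, and up to 0.135 with 1 array left out). Lpo and Rab38 were named after their values were seen.

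**Figure D4:**
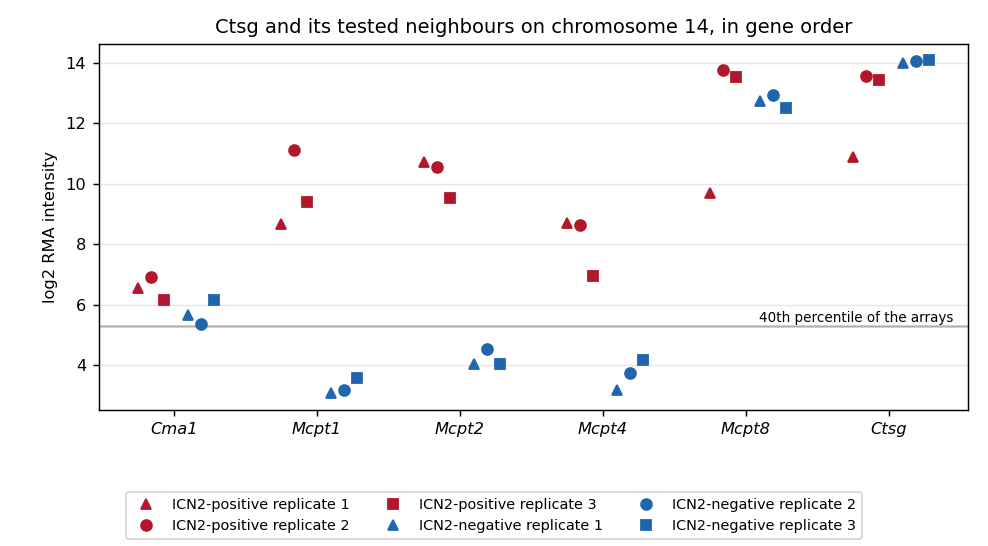
Log2 RMA intensity of Ctsg and its tested neighbours in gene order on chromosome 14, per array, ICN2-positive in red and ICN2-negative in blue, with the 40th percentile of the arrays in grey. In Mcpt1, Mcpt2 and Mcpt4 all ICN2-positive points lie above that level and all ICN2-negative points below it, in Ctsg the ICN2-positive points lie below the ICN2-negative ones, and in Mcpt8 ICN2-positive replicate 1 alone lies below them.

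Markers of other cell types are given as values beside the granule genes. Of 8 tested monocyte and dendritic cell markers 1 fell (Flt3), against 1.27% of all genes. In 7 of 8 every ICN2-positive value lay below every ICN2-negative one, against 16.9% of all genes. The other, Cx3cr1, had a higher mean in ICN2-positive cells (0.59 ± 0.24, adjusted p = 0.205 in limma). In the fit without ICN2-positive replicate 1, 4 of 8 were lower (Flt3, Ccr2, Cd14 and F13a1), against 2.02% of all genes. The summed intensity was 1903 to 6664 on ICN2-positive arrays, against 18652 to 23714 on ICN2-negative arrays. Of 9 erythroid markers 1 fell (Trim10), against 1.27% of all genes. Erythroid sums were 60662 to 68126 on ICN2-positive arrays, against 64790 to 65298 on ICN2-negative arrays, and the highest sum was that of ICN2-positive replicate 1. Of 11 mast cell and basophil markers 3 rose (Mcpt1, Mcpt2 and Mcpt4, passing the filter only through ICN2-positive arrays), against 1.89% of all genes. Their list summed to 9016 on ICN2-positive replicate 1 and 28657 to 36321 on the other ICN2-positive arrays, against 17872 to 21859 on ICN2-negative arrays. Of 8 T and NK cell markers 2 rose (Gzma and Gzmb), against 1.89% of all genes. T and NK sums were 6678 to 15136 on ICN2-positive arrays, against 466.4 to 896.9 on ICN2-negative arrays. Most of each ICN2-positive sum came from Gzma (10.22, 12.59 and 12.26 in replicates 1 to 3, log2) and Gzmb (12.14, 12.58 and 12.31). All 8 had higher means in ICN2-positive cells. The 6 that did not pass included Cd3e, Cd3d, Cd3g, Gata3 and Bcl11b, at 7.95 or lower on every array. The other was Cd7. It read 8.12, 11.02 and 9.79 (log2) in ICN2-positive replicates 1 to 3, against 7.87, 7.51 and 6.61 in ICN2-negative replicates. Its groups did not overlap (adjusted p = 0.148 in limma, and 0.0543 without ICN2-positive replicate 1). None of 7 megakaryocyte, 6 B cell or 4 eosinophil markers passed in limma (1, 4 and 0 had an unadjusted p below 0.05). Leaving out ICN2-positive replicate 1 changed no count of calls in the lists of erythroid, mast cell and basophil, T and NK cell, megakaryocyte, B cell and eosinophil markers. All 6 B cell markers had lower means, with sums of 869.3 to 2022 on ICN2-positive arrays, against 3674 to 13658 on ICN2-negative arrays. Eosinophil markers summed to 1737 on ICN2-positive replicate 1 and 8834 to 11686 on the other ICN2-positive arrays, against 8631 to 11784 on ICN2-negative arrays. Megakaryocyte markers summed to 2087 to 3997 on ICN2-positive arrays, against 2258 to 8197 on ICN2-negative arrays. Of the surface genes that define the granulocyte-monocyte gate, Cd34 read 9.50, 11.99 and 11.60 (log2) in ICN2-positive replicates 1 to 3, against 12.44, 12.38 and 12.31 in ICN2-negative replicates. Fcgr3 read 8.25, 11.99 and 11.75 in ICN2-positive cells, against 12.33, 12.92 and 12.89 in ICN2-negative cells. Neither passed (adjusted p = 0.266 and 0.279, and 0.101 and 0.114 without ICN2-positive replicate 1), and Kit, on which the cells were sorted, differed by 0.12 ± 0.19 (adjusted p = 0.732). The part of these cell types in the results was not tested.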

How the data were processed

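Per the submitters' processing notes, the authors made the deposited intensity values with RMA (version not given in the sources used here). Input was 5 ng RNA, amplified with Ovation kits per the labels. Values are linear and log2 was taken here. RMA equalises arrays, so a change in total RNA per cell would not show. Genes came from the platform annotation. Probe sets had to exceed the 40th percentile of the array on 3 or more of the 6 arrays. Groups were compared with limma 3.58.1 under R 4.3.3, without covariates, with Benjamini-Hochberg adjustment over all 27424 probe sets and a threshold of 0.05. It was also tested on simulated data. In lists, the brightest probe set stood for each gene. A group wholly under the 40th percentile gives "at least" folds against it, a rule set after values were seen. Members and lists were chosen with earlier results of these data known. Named genes were all members, up to 4 genes per list and of the neighbours with the smallest p, the 8 nearest in pattern, and markers. Same-numbered arrays correlated at 0.183, 0.101 and 0.0945 in their deviations, so the numbers were not taken as pairs.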

Additional observations from a re-analysis of the deposited data

How the results depend on the processing

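Over 19 alternatives, the 7 separated genes kept negative differences in each one run. Members called numbered 0 in all of these but the fit without ICN2-positive replicate 1, where 2 passed (0 to 2 with 1 array left out). The median difference of the member probe sets was -1.23, but -0.65 with array weights, and -1.67 to -0.43 with 1 array left out, the end nearest 0 being without ICN2-positive replicate 1. The 7 genes' adjusted p ranged from 0.0485 to 0.53 over the alternatives. The dim Ctsc probe set near 0 changed sign with quantile normalization again (-0.0133) and with 1 array left out (-0.20 to 0.23). Leaving out 1 array gave 95 to 860 probe sets called over the array, 1 to 2 inhibitors higher and 0 to 2 lower, 0 to 4 regulators lower, 0 to 2 later granule genes lower, and 1 to 5 neighbours higher and 0 to 2 lower. The replicate block gave 268 probe sets over the array, 0 members, 0 later granule genes lower and 2 neighbours lower, and changed no other count of list genes by over 1.5 times. Array weights, which ran from 0.294 (ICN2-positive replicate 1) to 4.03 (ICN2-positive replicate 3), gave 3970 probe sets, 5 other primary granule genes lower, 1 packing gene higher, 6 regulators lower, 2 later granule genes lower and 7 neighbours each way. A threshold of 0.10 gave 2376 probe sets, 2 other primary granule genes lower, 1 packing gene higher, 5 regulators, 2 later granule genes and 3 neighbours lower. An intensity trend gave 1216 probe sets, 1 other primary granule gene, 2 regulators and 2 neighbours lower. With 1 probe set per gene, 1 other primary granule gene and 2 neighbours were lower, and with the mean of probe sets also 2 regulators. No filter left 0 regulators lower, and a stricter filter 1 other primary granule gene and 0 later granule genes. Without _x_at, _s_at and _a_at probe sets 1 inhibitor was higher, and with a pseudocount of 16, 2 neighbours were lower. The cause of these shifts was not tested.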
